A study of Mus musculus with 25 samples.

Results

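Fcer1g, Tyrobp and Hcst encode the signalling adaptors FcRγ, DAP12 and DAP10, Fcgr3 and Ncr1 encode the activating receptors CD16 and NKp46, and Itgam encodes the integrin chain CD11b. These 6 genes were taken by gene symbol from a Clariom S mouse expression array, and each symbol had 1 transcript cluster, the set of probes that reads 1 gene. They were 6 of 22206 clusters tested, of which 19572 carried exactly 1 gene symbol. The arrays measured total RNA of thymic invariant natural killer T (iNKT) cells, which are T cells with a nearly fixed receptor for lipids shown by CD1d. All mice were of the C57BL/6 strain, and all cells were sorted as positive for the T cell receptor β chain, positive for a CD1d tetramer loaded with PBS57 and negative for CD24. The S3 cells, stage 3, were also positive for CD44 and NK1.1. The S1_S2 cells, stages 1 and 2, were negative for NK1.1, with or without CD44. At S3 there were 5 arrays of Mst1KO mice, which lack the Hippo pathway kinase Mst1, 1 array of dKOMst mice, which lack Mst1 and its close relative Mst2, and 7 arrays of wild-type (WT) mice. At S1_S2 there were 4 arrays of Mst1KO, 2 of dKOMst and 6 of WT. The knockout alleles, any Cre driver, pooling of mice and the age of the mice were not given in the labels used here. Nothing in the labels ties each array to a mouse of its own, so the p-values cover array-to-array spread alone, and part of it may be technical.

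FcRγ and DAP12 have almost no extracellular part and sit beside receptors that cannot signal alone. A phosphorylated tyrosine motif (ITAM) in their tails recruits the kinases Syk and Zap70, whereas DAP10 recruits phosphatidylinositol 3-kinase. In natural killer (NK) cells CD16 pairs with FcRγ, and NKp46 with FcRγ or the T cell receptor ζ chain. The receptor NKG2D pairs with DAP10 and, in mouse, also with DAP12. CD11b joins the β2 integrin chain to form Mac-1, a marker of mature NK cells and of myeloid cells. NK1.1-positive stage 3 iNKT cells are known for taking on many genes of NK cells.

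RefSeq promoter windows of build GRCm38.p6, from 250 bases before to 50 bases after the start site, were at hand for 5 of the 6 genes. The windows of Fcer1g at chr1:171234300-171234599 on the minus strand, Ncr1 at chr7:4337465-4337764 on the plus strand and Itgam at chr7:128062390-128062689 on the plus strand are shown because these genes had the most different patterns over the groups below. Each is written 5′ to 3′ along its gene, and capitals mark matches to the Runx core TGTGGT, the T-box core GGTGTGA or the Ets core AGGAAG on either strand, with no match overlapping another.
Fcer1g: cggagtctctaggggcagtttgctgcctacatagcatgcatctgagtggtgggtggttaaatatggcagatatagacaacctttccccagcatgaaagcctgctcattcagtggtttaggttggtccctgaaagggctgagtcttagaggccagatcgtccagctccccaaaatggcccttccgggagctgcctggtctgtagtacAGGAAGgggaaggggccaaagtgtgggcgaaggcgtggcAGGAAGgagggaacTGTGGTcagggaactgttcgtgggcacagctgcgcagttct
Ncr1: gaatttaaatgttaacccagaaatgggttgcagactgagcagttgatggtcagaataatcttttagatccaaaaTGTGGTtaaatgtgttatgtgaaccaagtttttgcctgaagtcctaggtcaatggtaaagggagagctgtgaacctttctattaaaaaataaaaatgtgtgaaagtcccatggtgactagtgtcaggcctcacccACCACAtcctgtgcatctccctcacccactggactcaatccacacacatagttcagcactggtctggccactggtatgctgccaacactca
Itgam: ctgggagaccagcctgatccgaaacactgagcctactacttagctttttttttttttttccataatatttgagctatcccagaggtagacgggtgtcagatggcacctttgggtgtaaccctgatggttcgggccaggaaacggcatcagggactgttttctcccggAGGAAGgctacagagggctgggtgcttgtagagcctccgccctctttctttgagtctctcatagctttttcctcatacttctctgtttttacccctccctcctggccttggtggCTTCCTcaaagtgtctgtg
The Fcer1g window held 2 Ets cores, starting at -44 and -5 from the start site, and 1 Runx core at 10. The Ncr1 window held 2 Runx cores, at -176 and -41. The Itgam window held 2 Ets cores, at -83 and 32. The windows of Hcst at chr7:30419805-30420104 and Fcgr3 at chr1:171059354-171059653, both on the minus strand, held 2 Ets cores and 1 Ets core. No T-box core was found in any of the 5 windows. Of all 32851 windows of this kind, 16.8% held the Runx core, 3.98% the T-box core and 35.4% the Ets core. These matches describe letters only and were not tested against the expression values.

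The deposited values were log2 values from 3.04 to 13.65, and the array medians lay between 7.28 and 7.39. Each array also carried 5222 negative control items, whose medians lay between 6.19 and 6.59. Title numbers of the arrays ran in 2 series in which the order of groups started over, 16 arrays in the first and 9 in the second. All Mst1KO arrays were in the first number series and all dKOMst arrays in the second, with WT in both. The series was a term in the main fit, and results of fits without it or within 1 series are named as such. All 10 T and iNKT identity markers were above the negative control median on every array. Of the 10, 2 were higher and 6 lower at S3 in WT, with a median of -0.21, and 1 was higher and 3 lower in Mst1KO, with a median of -0.11. Stk4, the gene of Mst1, read 9.43 to 10.13 in Mst1KO_S3, 10.08 in dKOMst_S3 and 9.69 to 10.73 in WT_S3. At S1_S2 it read 9.22 to 9.40 in Mst1KO, 10.27 and 9.63 in dKOMst and 10.18 to 10.74 in WT. Replicate 1 of dKOMst_S1_S2 and the dKOMst_S3 array thus lay within the WT range, and whether these probes fall in the deleted part was not given, and Mst1KO_S3 overlapped WT_S3 (-0.35 ± 0.15, adjusted p = 0.15), unlike Mst1KO_S1_S2 against WT_S1_S2 (-0.92 ± 0.16, adjusted p = 0.0059). Stk4 thus checks neither the dKOMst labels nor the Mst1KO_S3 label. Stk3, the gene of Mst2, was not named in the annotation used here. The 4 arrays of Mst1KO replicates 3 and 4, at both stages, lacked signal of 3 Y-linked genes that the other 21 arrays had.

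The first question was how the 6 genes differed between NK1.1-positive S3 and NK1.1-negative S1_S2 cells. In WT cells 5 of the 6 were higher at S3 and none was lower at an adjusted p under 0.05 (limma), against 16.9% of all clusters called, 8.18% higher and 8.75% lower. The median log2 difference of the 6 genes was 1.71, or 1.21 with Ncr1 at its bound, against 0.01 over all clusters. In Mst1KO cells 4 of the 6 were higher and none was lower, against 10.2% of all clusters called, 5.58% higher and 4.62% lower. The median of the 6 was 1.35, or 1.85 without Ncr1, against -0.04 over all clusters. The 3 adaptors and Fcgr3 rose in both genotypes. In bulk RNA, more cells that express a gene and more RNA per cell cannot be told apart.

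**Figure D1:**
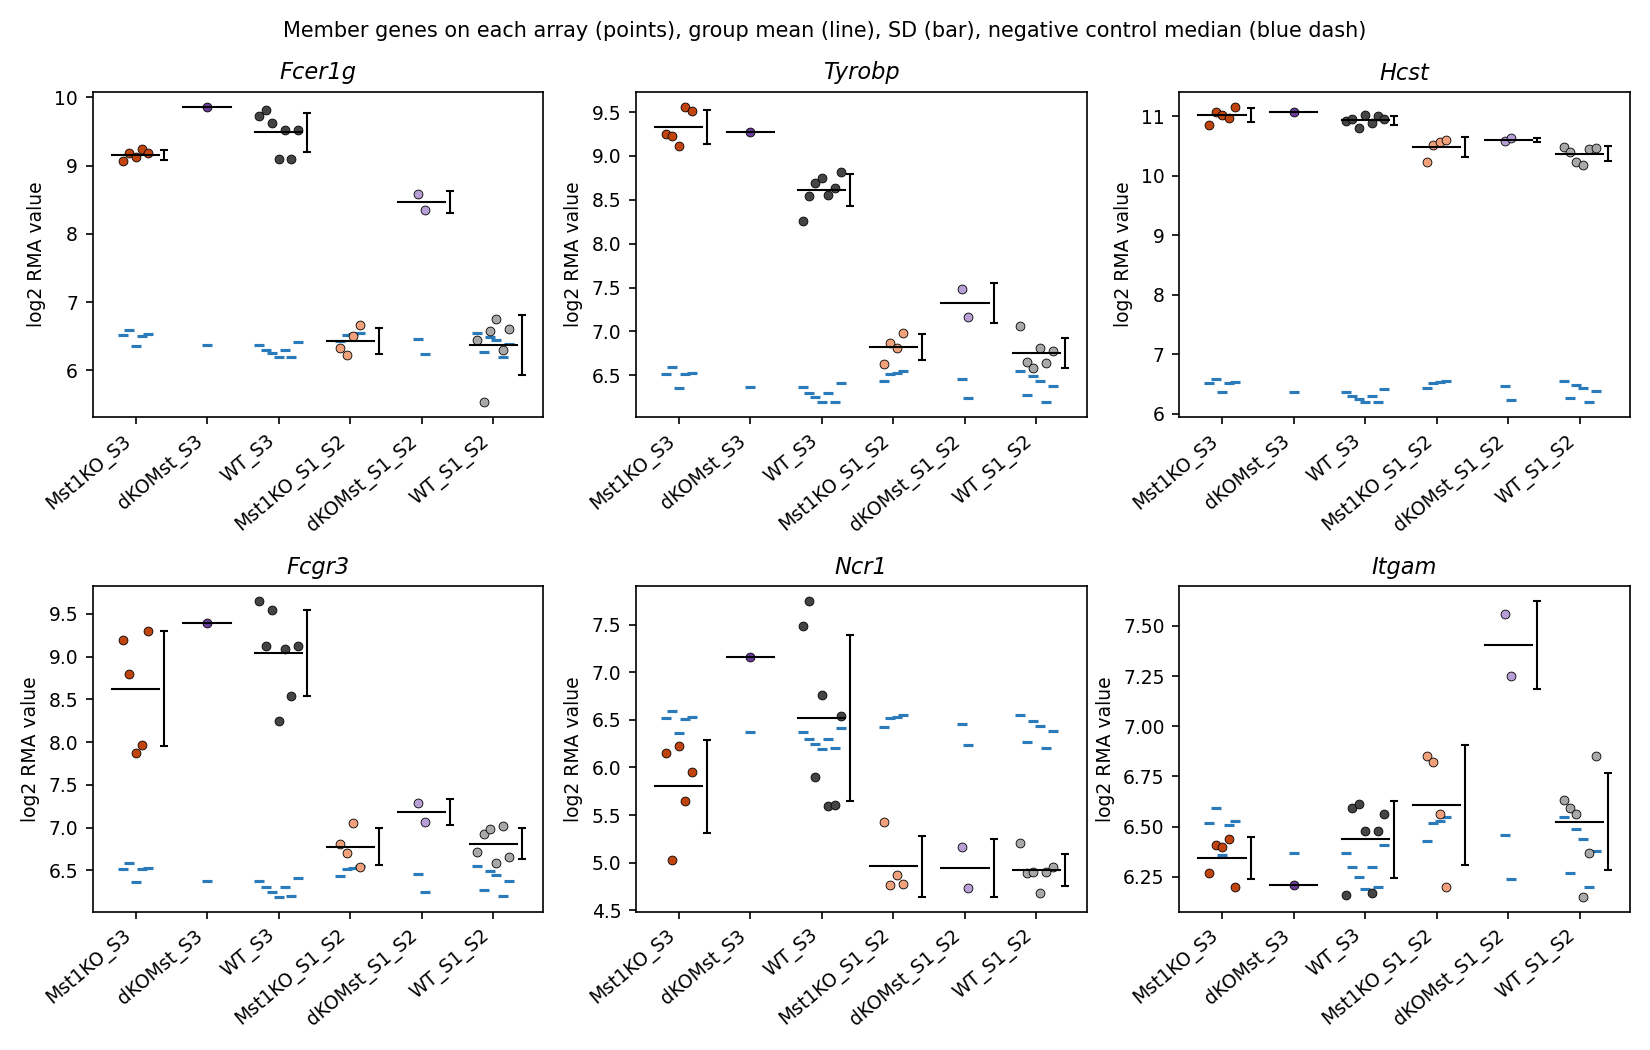
Log2 value of each of the 6 genes on every array (points), with group mean (line), SD (bar) and the median of that array's negative controls (blue dash), for the 6 groups. The vertical scales differ between genes and start above 0. Fcer1g, Tyrobp, Hcst and Fcgr3 sit higher at S3 than at S1_S2. The dKOMst_S1_S2 arrays stand above the other S1_S2 arrays for Fcer1g (8.35 and 8.58) and Itgam (7.25 and 7.56). They do so by less for Tyrobp (7.16 and 7.48) and Fcgr3 (7.07 and 7.29), where the other S1_S2 arrays reach 7.06 and 7.05.

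Fcer1g read 9.09 at the lowest, 9.52 at the median and 9.82 at the highest in WT_S3, against 5.53, 6.51 and 6.75 in WT_S1_S2. In Mst1KO the values were 9.06, 9.18, 9.12, 9.24 and 9.18 at S3, against 6.33, 6.22, 6.51 and 6.66 at S1_S2. Every S3 array was above every S1_S2 array of its genotype. The fitted difference was 3.12 ± 0.15 (SE) in WT, which is 8.69-fold (limma, adjusted p = 5.6e-13), and 2.73 ± 0.19 in Mst1KO (adjusted p = 3.5e-10). In WT_S1_S2 4 of 6 arrays and in Mst1KO_S1_S2 1 of 4 arrays were above the negative control median, so the S1_S2 level lay close to background and the fold rests on a dim value. On the S3 arrays of both genotypes Fcer1g lay above 90.5 to 96.6% of the negative controls.

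Tyrobp was above the negative control median on all 25 arrays, but at S1_S2 its level lay close to background. There it lay above only 51.6 to 59.6% of the negative controls in WT and 54.1 to 57.7% in Mst1KO. Its WT values ran from 8.26 through a median of 8.64 to 8.82 at S3, against 6.58, 6.71 and 7.06 at S1_S2. The Mst1KO values were 9.25, 9.23, 9.11, 9.56 and 9.51 at S3, against 6.63, 6.87, 6.81 and 6.98 at S1_S2. The 2 stages did not overlap in either genotype. The difference was 1.86 ± 0.10 in WT (limma, adjusted p = 2.4e-12) and 2.51 ± 0.12 in Mst1KO (adjusted p = 1.3e-12).

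Hcst was bright at both stages and lay above 97.0 to 99.1% of the negative controls across all arrays. It read 10.81, 10.95 and 11.03 (lowest, median, highest) in WT_S3, against 10.18, 10.43 and 10.48 in WT_S1_S2. In Mst1KO it read 10.85, 11.08, 11.03, 10.97 and 11.16 at S3, against 10.24, 10.51, 10.57 and 10.60 at S1_S2. The groups did not overlap, but the step was small, at 0.57 ± 0.07 in WT (limma, adjusted p = 2.9e-06) and 0.54 ± 0.09 in Mst1KO (adjusted p = 0.00014). It was the one adaptor whose step was under 1 on the log2 scale, that is, less than a doubling.

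Fcgr3, the low-affinity Fc receptor for IgG, ran from 8.25 through 9.12 to 9.65 in WT_S3, against 6.59, 6.81 and 7.02 in WT_S1_S2. In Mst1KO it read 9.19, 8.80, 7.87, 7.96 and 9.30 at S3, against 6.81, 6.70, 7.05 and 6.54 at S1_S2. The stages did not overlap in either genotype, while the spread within S3 was wide, with an SD of 0.50 in WT and 0.67 in Mst1KO. The difference was 2.22 ± 0.22 in WT (limma, adjusted p = 8.4e-08) and 1.85 ± 0.27 in Mst1KO (adjusted p = 4.1e-05). At S1_S2 Fcgr3 lay above only 53 to 65.6% of the negative controls in WT and 49.8 to 59.8% in Mst1KO. These differences thus rest on dim S1_S2 values. Fcgr2b, the inhibitory IgG Fc receptor, resembles Fcgr3 in sequence, and the probe sequences were not analysed here.

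Ncr1, a receptor found chiefly on NK cells and related innate lymphocytes, was dim. Its WT_S3 values ran from 5.60 through 6.54 to 7.75, against 4.68, 4.90 and 5.21 in WT_S1_S2. All 7 WT_S3 arrays were above all 6 WT_S1_S2 arrays, but 4 of the 7 and none of the 6 were above the negative control median. Ncr1 passed the test in WT (limma, adjusted p = 9.4e-05), and the difference is given only as at least 0.13 on the log2 scale, since S1_S2 had no array above background. In Mst1KO it read 6.15, 5.03, 6.23, 5.65 and 5.95 at S3, against 5.43, 4.76, 4.87 and 4.78 at S1_S2. No Mst1KO array was above its negative control median, and the test was not passed (adjusted p = 0.09). Leaving out Mst1KO_S3 replicate 2, the lowest at S3, brought the adjusted p to 0.038.

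Itgam did not pass the test between stages. It read 6.16, 6.48 and 6.61 (lowest, median, highest) in WT_S3, against 6.15, 6.57 and 6.85 in WT_S1_S2. In Mst1KO it read 6.27, 6.41, 6.40, 6.44 and 6.20 at S3, against 6.85, 6.82, 6.56 and 6.20 at S1_S2. The groups overlapped and most values lay near the negative control median. The difference was -0.09 ± 0.12 in WT (limma, adjusted p = 0.68) and -0.27 ± 0.14 in Mst1KO (adjusted p = 0.26).

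**Figure D2:**
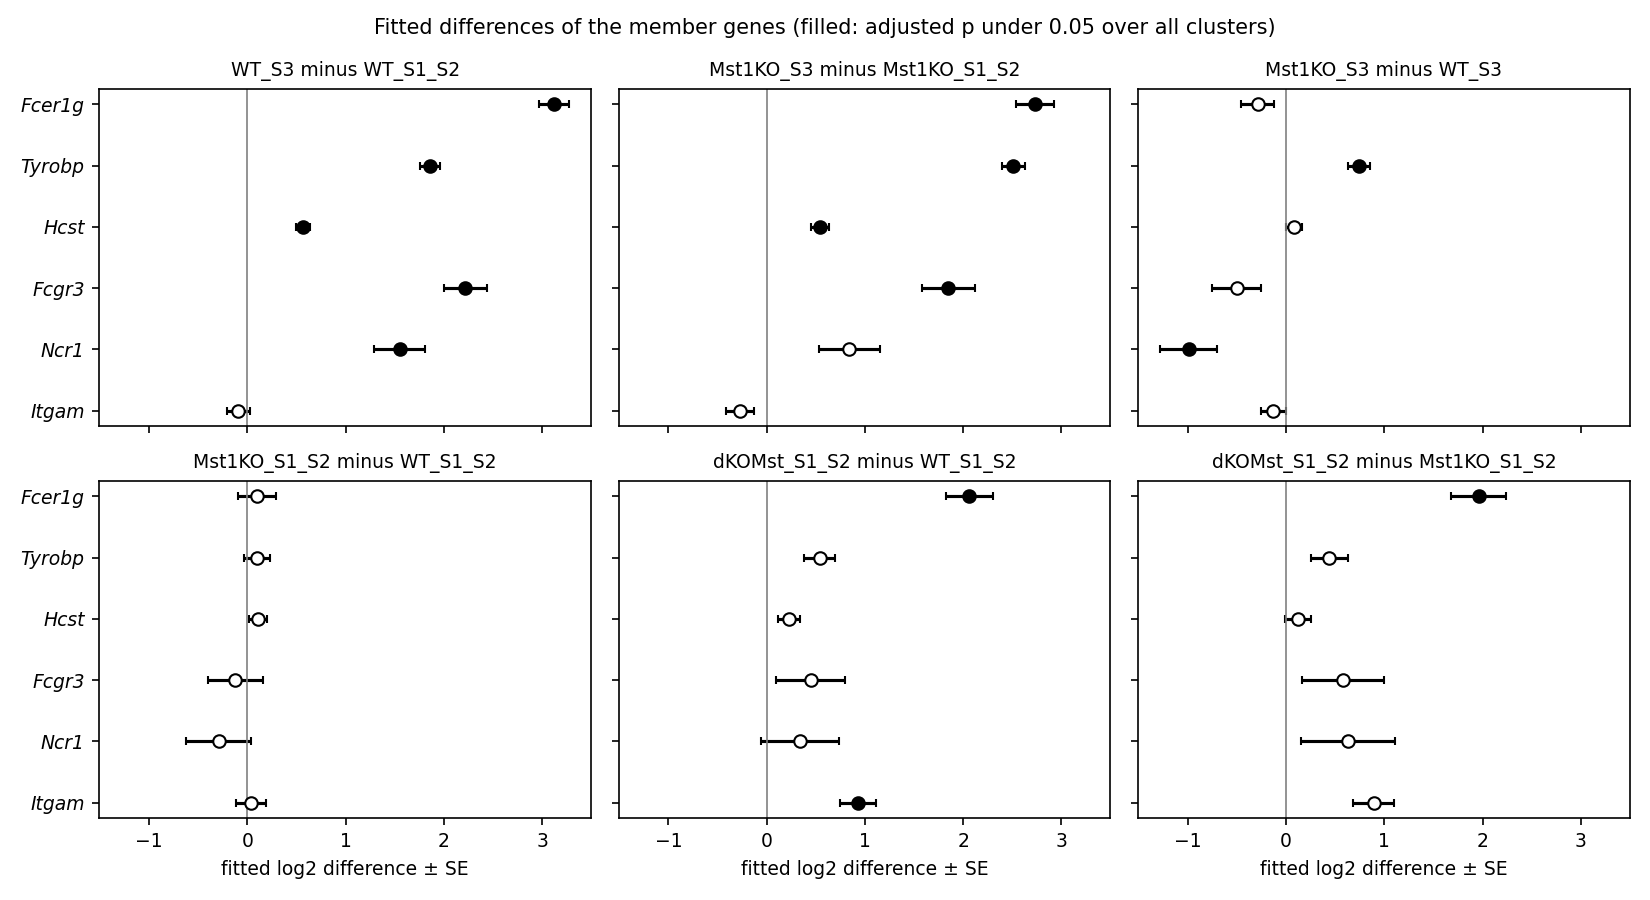
Fitted log2 difference (horizontal axis) ± SE of the 6 genes in 6 comparisons, each named above its panel as first group minus second, with filled points where the adjusted p was under 0.05. The adaptors and Fcgr3 lie right of 0 in both stage comparisons, Tyrobp alone lies right of 0 with a filled point in Mst1KO_S3 minus WT_S3 (0.74), and Fcer1g is filled in both dKOMst comparisons (2.06 and 1.96). In every panel at least 1 group had no array above background for Ncr1.

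Loss of Mst1 alone was compared next, within each stage. At S1_S2 none of the 6 genes passed the test in Mst1KO against WT, against 0.522% of all clusters (0.329% higher and 0.194% lower), and none had an unadjusted p under 0.05 (limma). The differences were 0.10 ± 0.19 for Fcer1g, 0.10 ± 0.13 for Tyrobp, 0.11 ± 0.09 for Hcst, -0.12 ± 0.28 for Fcgr3 and 0.04 ± 0.15 for Itgam, with adjusted p-values from 0.84 to 0.98. Ncr1 was below the negative control median on all arrays of both groups and has no fold. The median of the 6 genes was 0.07, or 0.10 without Ncr1, against -0.01 over all clusters.

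At S3 Tyrobp was higher and Ncr1 was lower in Mst1KO than in WT cells, so that 2 of the 6 genes were called, against 6.37% of all clusters (3.73% higher and 2.64% lower). The median of the 6 genes was -0.21, or -0.08 with Ncr1 at its bound, against -0.05 over all clusters. For Tyrobp the 5 Mst1KO_S3 values given above, 9.11 to 9.56, were all above the 7 WT_S3 values, 8.26 to 8.82. The difference was 0.74 ± 0.11, or 1.67-fold (limma, adjusted p = 0.00049), and within the first number series, where all Mst1KO arrays lie, it was 0.77 ± 0.13 (adjusted p = 0.005). The Tyrobp difference between genotypes was 0.65 ± 0.16 larger at S3 than at S1_S2, which did not pass the test over all clusters (adjusted p = 0.12, unadjusted p = 0.00047). None of the 6 genes passed that test of stage dependence, against 0.158% of all clusters (0.0901% higher and 0.0675% lower), and Tyrobp was the only one of the 6 with an unadjusted p under 0.05.

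Ncr1 read 5.03 to 6.23 in Mst1KO_S3, against 5.60 to 7.75 in WT_S3, and the ranges overlapped. Its adjusted p was 0.044 (limma), but no Mst1KO_S3 array was above background, and counted from the background the difference had a bound of -0.02 on the log2 scale. The call was lost without WT_S3 replicate 1, 2, 4 or 7 or Mst1KO_S3 replicate 2, 4 or 5, with adjusted p-values between 0.056 and 0.12. It was lost with no number series term too (-0.72, adjusted p = 0.21), and Ncr1 itself ran -0.64 ± 0.26 between the second and first series.

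The remaining genes did not pass the test at S3. The differences were -0.29 ± 0.17 for Fcer1g (limma, adjusted p = 0.31), 0.08 ± 0.08 for Hcst (adjusted p = 0.56), -0.50 ± 0.25 for Fcgr3 (adjusted p = 0.24) and -0.13 ± 0.13 for Itgam (adjusted p = 0.56). The low Fcgr3 values of Mst1KO_S3, 7.87 and 7.96, were those of replicates 3 and 4, which lacked Y-linked signal, while the other 3 arrays read 8.80 to 9.30. With only the arrays that had Y-linked signal the Fcgr3 difference was -0.02.

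Loss of both kinases was measured at S1_S2 on the 2 arrays labelled dKOMst. Fcer1g and Itgam were higher there than in WT_S1_S2, so that 2 of the 6 genes were called, against 0.923% of all clusters (0.554% higher and 0.369% lower). The median of the 6 genes was 0.50, or 0.54 without Ncr1, against 0.01 over all clusters. Fcer1g read 8.58 and 8.35 in dKOMst_S1_S2, against 5.53 to 6.75 in WT_S1_S2, with 85.7 to 85.9% of the negative controls below it on the dKOMst arrays and 35.4 to 56.1% on the WT arrays. The difference was 2.06 ± 0.24, or 4.17-fold (limma, adjusted p = 2.7e-05), and 1.91 ± 0.18 within the second number series (adjusted p = 0.0023). The level of 8.47 ± 0.16 (SD, n = 2) lay below that of WT_S3, 9.48 ± 0.29 (n = 7), and above that of WT_S1_S2, 6.37 ± 0.44 (n = 6), with no overlap with either.

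Itgam read 7.56 and 7.25 in dKOMst_S1_S2, against 6.15 to 6.85 in WT_S1_S2. The dKOMst_S1_S2 mean of Itgam, 7.40, was the highest of the 6 group means. The difference from WT_S1_S2 was 0.93 ± 0.18, or 1.9-fold (limma, adjusted p = 0.008). It was 0.95 ± 0.21 within the second number series, where the test was not passed (adjusted p = 0.12). Without dKOMst_S1_S2 replicate 1 it was 0.78 and not called (adjusted p = 0.29). The other members did not pass the test. Tyrobp read 7.48 and 7.16 in dKOMst_S1_S2, above all WT_S1_S2 arrays, and differed by 0.54 ± 0.16 (adjusted p = 0.12). Hcst differed by 0.23 ± 0.11 (adjusted p = 0.46) and Fcgr3 by 0.45 ± 0.35 (adjusted p = 0.74). For these genes too both dKOMst_S1_S2 arrays were above all WT_S1_S2 arrays. Ncr1 read 5.16 and 4.73 in dKOMst_S1_S2, below background as in WT.

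Against Mst1KO_S1_S2, dKOMst_S1_S2 was higher in 1 of the 6 genes, Fcer1g, against 0.171% of all clusters (0.117% higher and 0.054% lower). These groups lie in different number series and are joined only through the WT arrays of both. The difference of Fcer1g was 1.96 ± 0.28 (limma, adjusted p = 0.0017), and 1.85 without dKOMst_S1_S2 replicate 1, where it was no longer called (adjusted p = 0.098). Itgam differed by 0.89 ± 0.21 (adjusted p = 0.079), Tyrobp by 0.44 ± 0.19 (adjusted p = 0.5), Hcst by 0.12 ± 0.13 (adjusted p = 0.87) and Fcgr3 by 0.58 ± 0.42 (adjusted p = 0.77). The median of the 6 genes was 0.60, or 0.58 without Ncr1, against 0.02 over all clusters. This comparison and the one against WT_S1_S2 share their dKOMst arrays.

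**Figure D3:**
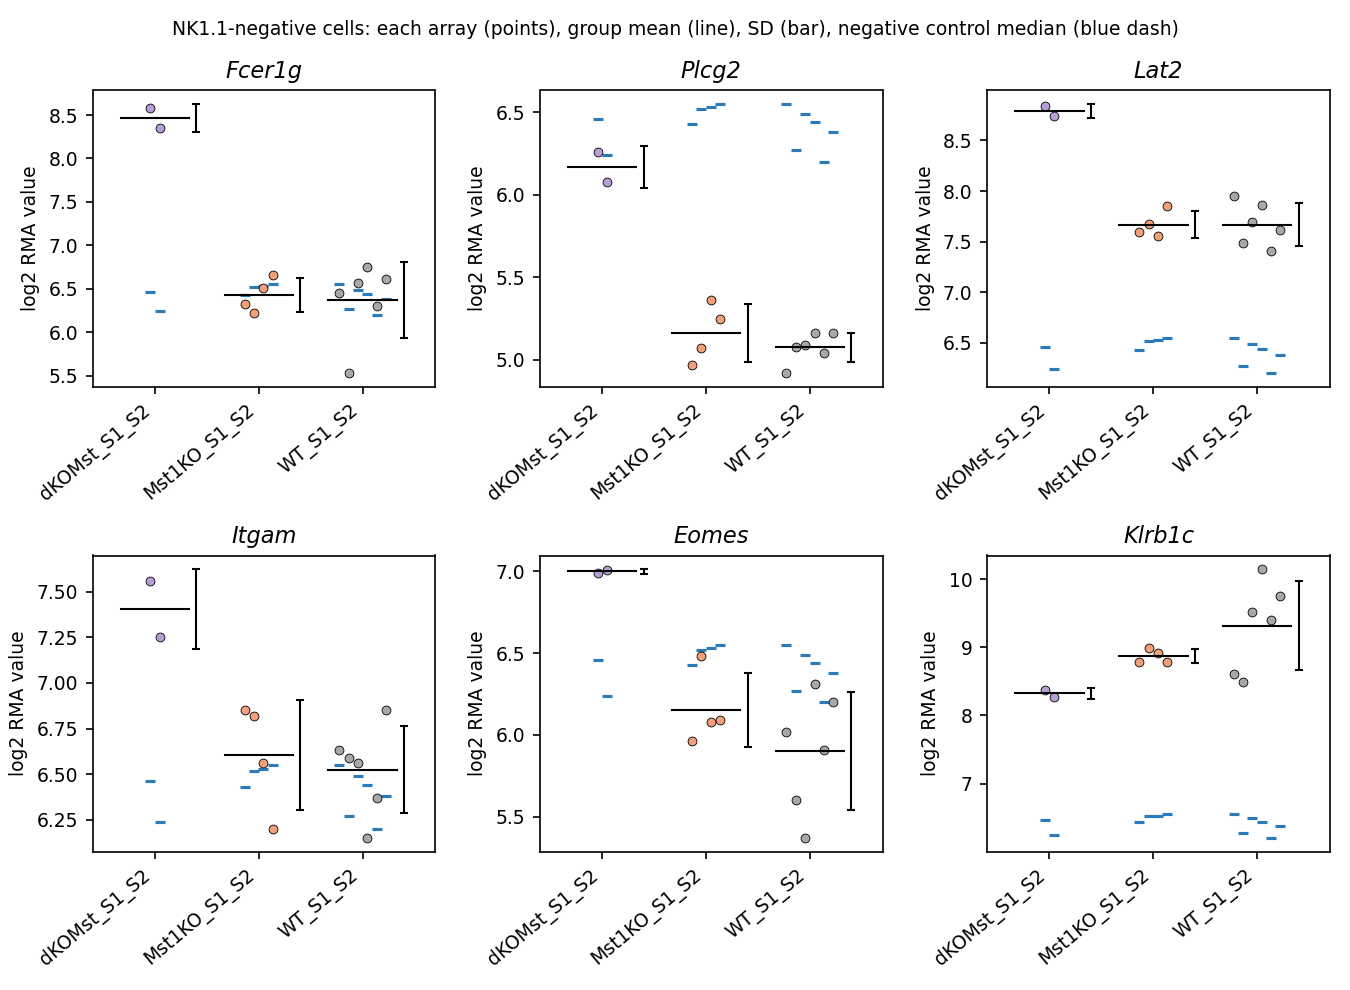
Log2 value on each S1_S2 array (points) of dKOMst, Mst1KO and WT mice for Fcer1g, Itgam and 4 genes named below, with group mean (line), SD (bar) and negative control median (blue dash). The vertical scales differ between genes and start above 0. Both dKOMst arrays are above every WT array for Fcer1g, Itgam, Lat2, Plcg2 and Eomes and below every WT array for Klrb1c, while Plcg2 sits below the control median on all arrays shown.

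The single dKOMst_S3 array allows no test. Fcer1g read 9.86 on it, against 9.09 to 9.52 on the 3 WT_S3 arrays of the same number series, a difference of 0.49 from their mean. Tyrobp read 9.27 on it, against 8.56 to 8.82 on those WT_S3 arrays, a difference of 0.60, and lay inside the Mst1KO_S3 range. Ncr1 read 7.16 on it, against 5.60 to 6.54 on those WT_S3 arrays, of which 1 of 3 was above the control median, so no difference is given. On all 7 WT_S3 arrays it ran from 5.60 to 7.75, on both sides of that value. The differences of Hcst (0.13), Fcgr3 (0.47) and Itgam (-0.20) were smaller or within the WT_S3 range. Itgam read 6.21 on the dKOMst_S3 array, 1.20 less than the mean of dKOMst_S1_S2.

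Ordered by group mean, Tyrobp, Hcst and Fcgr3 had their widest gap between the lowest S3 group and dKOMst_S1_S2. For Fcer1g the order was dKOMst_S3, WT_S3, Mst1KO_S3, dKOMst_S1_S2, Mst1KO_S1_S2 and WT_S1_S2, with the widest gap, 2.04, below dKOMst_S1_S2. The WT_S3 and Mst1KO_S3 arrays overlapped, as did those of Mst1KO_S1_S2 and WT_S1_S2. For Tyrobp Mst1KO_S3 came first and dKOMst_S3 second, with overlap, then WT_S3 with none, then a gap of 1.29 to dKOMst_S1_S2. For Hcst and Fcgr3 the 3 S3 groups overlapped their neighbours in the order and were separated from dKOMst_S1_S2 by 0.33 and 1.44. For Ncr1 every neighbouring pair overlapped. For Itgam dKOMst_S1_S2 came first, 0.80 above Mst1KO_S1_S2 with no overlap, and the other groups overlapped in turn.

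**Figure D4:**
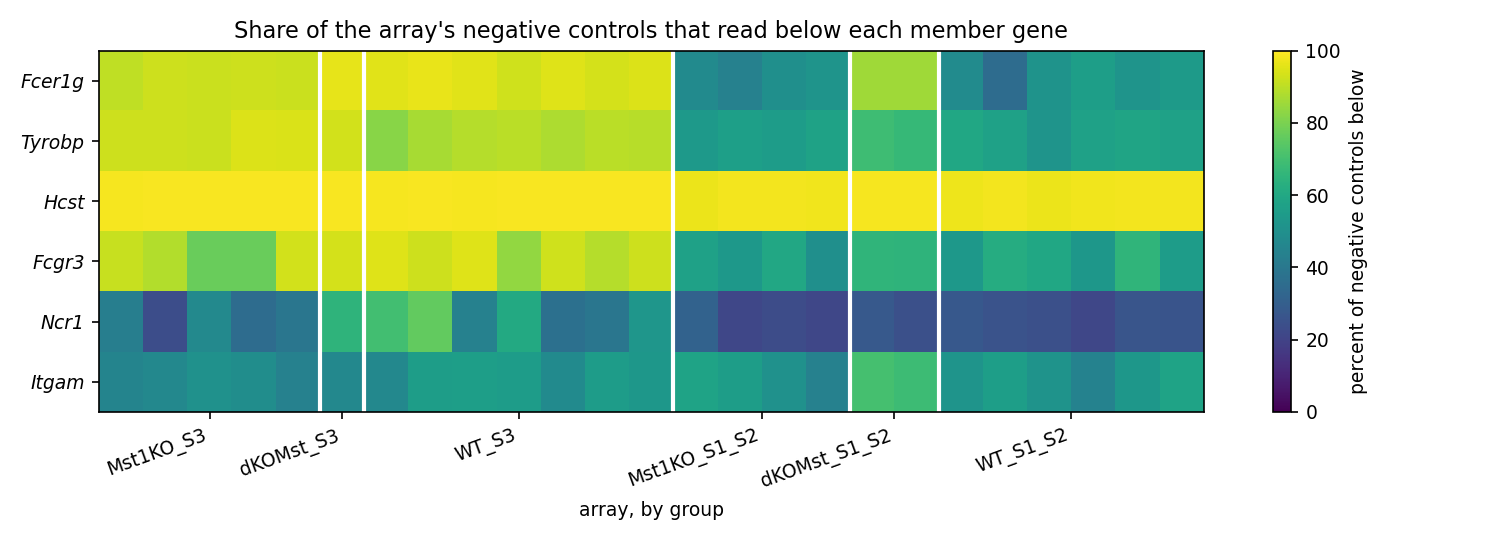
Percent of each array's negative controls (colour) that read below each of the 6 genes (rows), for all 25 arrays (columns) by group. Hcst is above 97.0% or more on every array, Ncr1 reaches 76.1% at most, and Fcer1g at S1_S2 is above 85.7 to 85.9% in dKOMst but 43.9 to 51.9% in Mst1KO and 35.4 to 56.1% in WT.

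For the lists below, the share of all clusters called between stages was 16.9% in WT and 10.2% in Mst1KO. Between Mst1KO and WT it was 6.37% at S3 and 0.522% at S1_S2. In dKOMst_S1_S2 it was 0.923% against WT_S1_S2 and 0.171% against Mst1KO_S1_S2. The median over all clusters was 0.01 between stages in WT, -0.04 in Mst1KO and 0.01 in dKOMst_S1_S2 against WT_S1_S2. Among 22 measured of 28 listed other receptors known to pair with these adaptors in mouse, 5 were higher and none lower at S3 in WT. Their median was 0.11, or 0.08 with dim genes at their bound or left out, against 0.01 over all clusters. The 3 largest were Klrk1, which encodes NKG2D (3.51 ± 0.24, adjusted p = 1.2e-10), Klrb1c, which encodes the NK1.1 antigen used in the sort (3.24 ± 0.16, adjusted p = 7.1e-13), and Klrc2, which encodes NKG2C (2.99 ± 0.31, adjusted p = 1e-07). In Mst1KO 5 were also higher and none lower, with Klrk1 at least 4.33 and Klrc2 at least 2.70 higher, since Mst1KO_S1_S2 had no array above background for either, and Klrb1c 3.52 ± 0.20 higher. None passed the test between Mst1KO and WT at either stage. In dKOMst_S1_S2 against WT_S1_S2 1 was lower and none higher. That gene was Klrb1c, at 8.38 and 8.27 in dKOMst and 8.49 to 10.15 in WT (-1.18 ± 0.25, adjusted p = 0.02), and its call was lost without WT_S1_S2 replicate 4 or 6 or either dKOMst array (adjusted p between 0.056 and 0.21).

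Of the 6 other ITAM chains, all of the T and B cell receptors, Cd3e was higher at S3 in WT (0.20 ± 0.05). Cd247, which encodes the ζ chain that also pairs with NKp46, was lower there (-0.35 ± 0.09, limma, adjusted p = 0.0047). None of the 6 was called in any other comparison. The call of Cd3e was lost in each number series alone (adjusted p = 0.29 in the first and 0.16 in the second), and that of Cd247 in the first alone (adjusted p = 0.15). Of 34 measured of 39 listed kinases, adaptors, lipid enzymes and phosphatases that act below the adaptors, 8 were higher and 2 lower at S3 in WT, with a median of 0.11. Ptpn6, which encodes the phosphatase SHP-1 (0.58 ± 0.06), Pik3cd, a phosphatidylinositol 3-kinase subunit (0.57 ± 0.07), and Malt1, a scaffold of NF-κB signalling (0.55 ± 0.07), had the largest differences. In Mst1KO 5 were higher and 1 lower, led by Malt1 (0.46 ± 0.09), Pik3cd (0.45 ± 0.08) and Ptpn6 (0.43 ± 0.07). Syk did not pass the test at S3 in WT (-0.04 ± 0.08, adjusted p = 0.8) and neither did Zap70 (0.11 ± 0.06, adjusted p = 0.21). None of the 34 passed between Mst1KO and WT at either stage.

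In dKOMst_S1_S2 against WT_S1_S2 2 of these 34 downstream genes were higher and none lower, with a median of 0.02. Lat2, an adaptor phosphorylated below Fc receptors, read 8.84 and 8.74 in dKOMst and 7.41 to 7.95 in WT (1.15 ± 0.22, adjusted p = 0.0071). Its call was lost without dKOMst replicate 1 or 2 (adjusted p = 0.18 and 0.064). Plcg2, a phospholipase below ITAM receptors, read 6.26 and 6.08 in dKOMst and 4.92 to 5.16 in WT and passed the test (adjusted p = 0.00033), but none of these arrays was above the negative control median, so no fold is given. Against Mst1KO_S1_S2 Plcg2 was the 1 gene of the 34 called in dKOMst_S1_S2, with the same limit, and the call was lost without dKOMst replicate 1 (adjusted p = 0.32).

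Among all 17 listed Fc receptor genes other than Fcgr3 none was higher and 1 was lower at S3 in WT, against 8.18% and 8.75% of all clusters. The lower gene was Fcrl1 (-1.42 ± 0.19), a B lineage receptor. In Mst1KO Fcrl1 was lower (-1.50 ± 0.23) and Fcgr2b was higher (0.90 ± 0.17, adjusted p = 0.00071). On arrays with Y-linked signal alone Fcgr2b was no longer called (0.80, adjusted p = 0.068). Between Mst1KO_S3 and WT_S3 Fcgr2b was the 1 gene called, at 7.34 ± 0.27 (SD, n = 5) in Mst1KO_S3 and 6.71 ± 0.26 (n = 7) in WT_S3 (0.61 ± 0.16, adjusted p = 0.025), with its call lost without WT_S3 replicate 2 or Mst1KO_S3 replicate 1 or 3 (adjusted p between 0.051 and 0.059). Among 9 genes of β2 integrins and their activation, 2 were higher and 1 lower at S3 in WT, against 8.18% and 8.75% of all clusters. Rap1a stood at -0.34 ± 0.07, Rap1b at 0.33 ± 0.05 and Rassf5 at 0.26 ± 0.07. The call of Rassf5 was lost in each number series alone (adjusted p = 0.096 in the first and 0.27 in the second), and those of Rap1a and Rap1b in the second alone (adjusted p = 0.21 and 0.067). In Mst1KO 3 were higher, Itgad, below background in both groups, Itgb2, the β2 chain that pairs with CD11b (0.31 ± 0.09, adjusted p = 0.028), and Rap1b (0.28 ± 0.06). Rassf5, which encodes RAPL, a partner of Mst1 in integrin activation, was lower in Mst1KO_S3 than in WT_S3 (-0.28 ± 0.08, adjusted p = 0.04), a call lost without WT_S3 replicate 1, 2, 3 or 6 or Mst1KO_S3 replicate 1, 2, 4 or 5 (adjusted p between 0.051 and 0.098). The call of Itgb2 was likewise lost without Mst1KO_S1_S2 replicate 1, 3 or 4 or Mst1KO_S3 replicate 2 or 5 (adjusted p between 0.057 and 0.083). It was also lost with quantile normalization again (adjusted p = 0.064), in the first number series alone and on arrays with Y-linked signal alone (adjusted p = 0.22). None of the 9 was called in dKOMst_S1_S2, Itgb2 included.

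Of 17 measured of 20 listed transcription factors of NK cell maturation, 9 were higher and 4 lower at S3 in WT, with a median of 0.32, or 0.13 with dim genes at their bound or left out. Stat4, which transmits interleukin-12 signals, rose by 3.33 ± 0.20, Tbx21, which encodes T-bet, rose by 1.91 ± 0.14, and Id3, an inhibitor of E proteins, stood at -1.99 ± 0.18. In Mst1KO 7 were higher and 4 lower, with Stat4 at 2.82 ± 0.24, Tbx21 at 1.95 ± 0.17 and Id3 at -1.56 ± 0.22. Between Mst1KO_S1_S2 and WT_S1_S2 1 was higher, Nfil3 (0.94 ± 0.17, adjusted p = 0.0076), and 1 lower, Tox (-0.51 ± 0.11, adjusted p = 0.029). The call of Nfil3 was lost without the number series term (adjusted p = 0.087) and on arrays with Y-linked signal alone (adjusted p = 0.083). The call of Tox was lost without WT_S1_S2 replicate 1 or 2 or Mst1KO_S1_S2 replicate 1, 2 or 4 (adjusted p between 0.059 and 0.12). It was also lost without the number series term (adjusted p = 0.058) and in the first number series alone (adjusted p = 0.056). The same held on arrays with Y-linked signal alone (adjusted p = 0.15) and with the compared groups only (adjusted p = 0.19). Between Mst1KO_S3 and WT_S3 Eomes was the 1 factor called (0.67 ± 0.14, adjusted p = 0.0076), with 3 of 5 Mst1KO_S3 arrays and 1 of 7 WT_S3 arrays above the control median. That call was lost without the number series term (0.51, adjusted p = 0.073) and on arrays with Y-linked signal alone (0.54, adjusted p = 0.09). Eomes, a factor of conventional NK cells, was also the 1 factor called in dKOMst_S1_S2 against WT_S1_S2. It read 6.99 and 7.01 in dKOMst and 5.37 to 6.31 in WT, where no array was above background, so it was at least 0.61 higher (adjusted p = 0.02). The dKOMst_S1_S2 call was lost without WT_S1_S2 replicate 5 or either dKOMst array (adjusted p between 0.062 and 0.25).

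Markers of other cells that express these 6 genes were read beside them. At S3 16.9% of all clusters were called in WT (8.18% higher and 8.75% lower) and 10.2% in Mst1KO (5.58% higher and 4.62% lower). Of 12 measured of 15 listed NK and ILC1 markers, which include Ncr1 and Itgam, 7 were higher and none lower at S3 in WT (6 and none in Mst1KO), and their mean log2 value ran from 7.54 to 7.74 in WT_S3, against 6.52 to 6.87 in WT_S1_S2. In dKOMst_S1_S2 2 of the 12 were called, Itgam and Eomes, and the mean ran from 6.82 to 6.92, against 6.52 to 6.87 in WT_S1_S2. Their summed linear level ran from 2110 to 2520 in dKOMst_S1_S2, against 1810 to 2380 in WT_S1_S2. Of 25 measured of 28 listed myeloid and dendritic markers, 8 were higher and 2 lower at S3 in WT (6 and 1 in Mst1KO). The largest rises in WT were those of C1qa (1.48 ± 0.18), Lyz2 (1.00 ± 0.11) and Mpeg1, which had no WT_S1_S2 array above background. The lower genes in WT were Xcr1, with no WT_S3 array above background, and Ctss (-0.30 ± 0.07). Ctss was also the lower gene in Mst1KO (-0.58 ± 0.09). The summed linear level of the 25 markers ran from 3310 to 3810 in WT_S3, against 2820 to 3080 in WT_S1_S2. Of the 25, 13 were above background on every WT_S3 array and 9 on every WT_S1_S2 array. Another 6 were above it on no WT_S3 array and 10 on no WT_S1_S2 array. Spi1 was 1 of the 8 called higher at S3 in WT (limma, adjusted p = 0.013), though below background in both groups. The part of such cells in the rise of Fcer1g, Tyrobp and Fcgr3 at S3 was not tested.

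In dKOMst_S1_S2, where Fcer1g and Itgam were higher, 0.923% of all clusters were called against WT_S1_S2. Of the 25 myeloid markers 1 was called there, Lyz2. It read 6.81 to 6.96 in dKOMst_S1_S2 and 6.19 to 6.50 in WT_S1_S2 (0.70 ± 0.16, adjusted p = 0.037), a call lost without WT_S1_S2 replicate 1, 4 or 6 or either dKOMst array (adjusted p between 0.051 and 0.26). The summed linear level of the 25 markers ran from 2890 to 2980 in dKOMst_S1_S2, inside the 2820 to 3080 of WT_S1_S2. Of the 25, 10 were above background on every dKOMst_S1_S2 array. Another 11 were above it on no dKOMst_S1_S2 array. None of 9 mast cell and basophil markers was called in any comparison, and the summed level ran from 1060 to 1320 in dKOMst_S1_S2, against 907 to 1290 in WT_S1_S2. Of the 9, 5 were above background on every dKOMst_S1_S2 array and 4 on every WT_S1_S2 array. Kit differed by 1.34 ± 0.51 between dKOMst_S1_S2 and WT_S1_S2 and did not pass the test (limma, adjusted p = 0.29). Fcer1a, Ms4a2 and Cpa3 were the 3 of the 9 above background on no array of dKOMst_S1_S2, WT_S3 or WT_S1_S2. In Mst1KO_S3 this held for 2 of the 9, Fcer1a and Ms4a2. The part of myeloid cells, mast cells and basophils in the Fcer1g and Itgam differences was not tested. Of 7 measured B cell markers none was called in dKOMst_S1_S2, and neither was any of 3 measured γδ T cell markers. Of those 3, Cd163l1 was higher in Mst1KO than in WT at S3 (0.82 ± 0.12, adjusted p = 0.00032) and at S1_S2 (0.77 ± 0.14, adjusted p = 0.0059, or 0.25 on arrays with Y-linked signal alone), and lower at S3 in WT (-0.98 ± 0.11) and in Mst1KO (-0.93 ± 0.13). Sox13 was lower in Mst1KO_S1_S2 than in WT_S1_S2 (-0.67 ± 0.14, adjusted p = 0.027), a call lost without WT_S1_S2 replicate 2 or Mst1KO_S1_S2 replicate 2 or 3 (adjusted p between 0.069 and 0.12). At S3, beside the difference in Tyrobp, 4 of 8 measured markers of double-positive and immature thymocytes were higher in Mst1KO than in WT, against 3.73% of all clusters. The summed level of the 8 ran from 1610 to 2140 in Mst1KO_S3, against 996 to 1430 in WT_S3. The 4 were Ccr9 (0.98 ± 0.18, limma, adjusted p = 0.003), Cd8b1 (0.73 ± 0.18), Themis (0.68 ± 0.17) and Cd24a, below background in both groups. The calls of Cd8b1 and Themis were each lost without WT_S3 replicate 3 or Mst1KO_S3 replicate 5, and that of Themis without Mst1KO_S3 replicate 2 or 4 (adjusted p between 0.051 and 0.064). Between stages 1 of the 8 was higher and 2 lower at S3 in WT, and 3 higher and 2 lower in Mst1KO. The lower genes were Ccr9 and Themis, at -4.29 ± 0.16 and -2.32 ± 0.15 in WT and -2.64 ± 0.20 and -1.82 ± 0.18 in Mst1KO. At S1_S2 the summed level ran from 3600 to 4520 in WT and from 3040 to 3720 in Mst1KO. Of the 12 NK and ILC1 markers, 3 were higher in Mst1KO_S3 than in WT_S3, Itga2 (0.76 ± 0.17, adjusted p = 0.011), Eomes and Klri2 (0.94 ± 0.27, adjusted p = 0.039), and 2 were lower, Tnfsf10 (-0.66 ± 0.15, adjusted p = 0.01) and Ncr1. Their summed level ran from 5290 to 6110 in Mst1KO_S3, against 5130 to 6490 in WT_S3. Of the 25 myeloid markers 1 was lower, S100a9 (-0.58 ± 0.17, adjusted p = 0.041), and their summed level ran from 3200 to 3570 in Mst1KO_S3, against 3310 to 3810 in WT_S3. The call of Klri2 was lost without WT_S3 replicate 1, 2 or 4 or Mst1KO_S3 replicate 2, 3, 4 or 5 (adjusted p between 0.057 and 0.094), and that of S100a9 without WT_S3 replicate 1, 4 or 7 or Mst1KO_S3 replicate 1, 2, 3 or 5 (adjusted p between 0.051 and 0.12). The part of immature, NK or myeloid cells in the Tyrobp and Ncr1 differences was not tested.

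The genes nearest to each member over the 25 arrays were named by the root mean square difference of centred log2 values, over 17047 candidate clusters, as a description with no test, since all genes share the same arrays. For Fcer1g they were Scimp (0.47), Klra7 (0.55) and Nkg7 (0.57). For Tyrobp they were Hip1 (0.37), Ppm1j (0.39) and Gem (0.39), and for Fcgr3 Serpinb9 (0.38), Entpd1 (0.42) and Cd244a (0.44). For Hcst they were Rabac1 (0.12), Ptpn6 (0.13) and Zdhhc18 (0.13), where small distances go with a small range of values. For Ncr1 they were Cables1 (0.51), Cish (0.54) and Mxd1 (0.55), and for Itgam Syde2 (0.20), Cacna1e (0.22) and H2al1a (0.23). Fcer1g lay 0.67 from both Tyrobp and Fcgr3, its 12th and 11th nearest candidates.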

How the data were processed

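Log2 expression values of 25 Clariom S arrays were deposited by the authors. The submitters' processing notes name RMA and Affymetrix Expression Console 1.1 as their source. RNA was prepared with RNeasy Micro and labelled with NuGEN kits, per the labels' protocols, and the genome build was not given in the sources used here. Of 28846 items, 6640 were controls (5222 negative, 1324 positive) and were left out, and 22206 clusters were tested, 19572 with 1 symbol and 2634 with none in the platform annotation.

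Groups came from the labels. One limma 3.58.1 fit (R 4.3.3) of 6 group means and the number series over 25 arrays, with 18 residual degrees of freedom, gave each log2 difference as first group minus second. Adjusted p-values are Benjamini-Hochberg over all clusters, two-sided, with a threshold of 0.05. The fit was checked on simulated data, and no 2 arrays held identical values. The number of arrays limits the precision. Where no array of a group was above its negative control median, the difference is a bound from the higher of that median and the value, and none is given where both groups were so.

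The 6 genes and all lists were chosen with earlier results of these data known. From each list up to 3 called genes with the largest differences were named per comparison (Syk and Zap70 were added after their values were seen). Alternatives covered the number series, variance model, renormalization, centring, dim clusters, arrays compared, Y-linked signal, fold minimum and each array left out. Promoters are RefSeq's, GRCm38.p6. Listed genes with no cluster under that symbol were not analysed here.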

Additional observations from a re-analysis of the deposited data

Results flagged for a closer look

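Of 24 sets of 1 gene in 1 group of 4 to 10 arrays, 2 held an array far from the others, and chance alone marks about 1 in 20. Fcer1g read 5.53 in WT_S1_S2 replicate 2, against 6.30 to 6.75 on the other 5 arrays, a gap of 0.63 of the group's range. Ncr1 read 5.43 in Mst1KO_S1_S2 replicate 1, against 4.76 to 4.87 on the other 3 arrays, a gap of 0.84 of the range. Both values were below the negative control median of their array.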

How the results depend on the processing

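Of 929 repeats of the 42 results on the 6 genes under other settings, 892 kept direction and call, 19 lost a call, 3 gained one and 15, none of them called, changed sign. The 77 results on named list genes were repeated 1723 times, of which 1555 kept direction and call, 168 lost a call and none changed sign. Fcer1g in dKOMst_S1_S2 against WT_S1_S2 (1.91 to 2.18) and Tyrobp in Mst1KO_S3 against WT_S3 (0.66 to 0.80) were called under every setting run.

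The count of the 6 genes called in Mst1KO_S3 against WT_S3 was 1 instead of 2, by loss of Ncr1, with no number series term, the series as a random block, quantile normalization again, centring, bright clusters only, arrays with Y-linked signal only and the compared groups only, and 1 to 2 with single arrays left out. The count in dKOMst_S1_S2 against WT_S1_S2 was 1 instead of 2, by loss of Itgam, in the second number series alone and with the compared groups only, and 1 to 2 with single arrays left out. In dKOMst_S1_S2 against Mst1KO_S1_S2 it was 2 instead of 1 with no number series term, where Itgam was called (0.80, adjusted p = 0.028), and 0 to 1 with single arrays left out. The cause of these changes was not tested. Counted against the 95th percentile of the negative controls instead of their median, 5 of 25 arrays were above it for Fcer1g, 0 for Tyrobp, 2 for Fcgr3, 0 for Ncr1 and 0 for Itgam. Hcst lost its stage calls when a 1.5-fold difference was required.

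Sign changes were small. In Mst1KO_S1_S2 against WT_S1_S2, Fcer1g was -0.06 with Y-linked arrays only and -0.16 to 0.17 with single arrays left out, Itgam was -0.04 to 0.17 with single arrays left out, and Ncr1 was 0.03 with no number series term. In the stage dependence of the Mst1KO difference, Hcst was 0.01 when centred, 0.09 with Y-linked arrays only and -0.11 to 0.02 with single arrays left out, and Fcgr3 was 0.12 with Y-linked arrays only. In dKOMst_S1_S2 against Mst1KO_S1_S2, Ncr1 was -0.01 with no number series term.

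No paired analysis was possible because the labels give no replicate numbers, and those used here follow accession order. Each symbol had 1 cluster, so a second cluster was not tried. The comparison of dKOMst with Mst1KO was not run within 1 number series or from those groups' arrays alone, and the setting with bright clusters only leaves out Ncr1. With 1 dKOMst_S1_S2 array left out, the lone array is assumed to vary like the other groups. Signal over background limits Ncr1, Itgam and, at S1_S2, Fcer1g, Tyrobp and Fcgr3.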
